A study of Mus musculus with 14 samples.

Results

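The genes described here encode the gel-forming mucins of the airway and the factors that goblet cells use to make, fold, package and secrete mucus: Muc5ac, Muc5b, Clca1, Spdef, Foxa3, Agr2, Tff2, Itln1, Fcgbp and Fer1l6. They were taken by gene symbol from the 3 deposited count tables, each of which listed the same 54347 genes, and all 10 were found once in each table. Lung RNA of C57BL/6 mice was sequenced as 14 libraries, and n below counts libraries. The mice had been given an extract of the mould Alternaria alternata into the nose, 2 mg in 40 µl on each of 4 days. This is a model of allergic airway inflammation.

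The libraries formed 3 experiments. In the bone marrow chimera experiment, irradiated mice that carried a human JAK1 gain-of-function allele (GOF recipients, n = 2) or were wild type (WT recipients, n = 2) all received 1e7 live WT bone marrow cells within a day of irradiation, so the groups differed in the genotype of the host and not of the graft. JAK1 is a tyrosine kinase that carries signals of many cytokine receptors. In the intrathecal experiment, WT mice received resiniferatoxin (RTX), a toxin that activates TRPV1 and kills the sensory neurons that carry it, at 25 ng per mouse on each of 2 days into the lumbar spinal canal (n = 3), or 10 µl saline (n = 2). The labels describe this RTX route as removing spinal visceral afferents. In the subcutaneous experiment, WT mice received RTX under the skin at 30, 70 and 100 µg/kg over 3 days (n = 3), or 100 µl saline (n = 2), and this route is described as removing vagal and spinal visceral afferents together. The labels give no promoter or expressing cell type for the human JAK1 allele, no share of host blood cells that remained, and no age. All 14 libraries came from lungs given the allergen, and levels in an unchallenged lung were not analysed here.

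Airway mucus is a gel of large glycosylated mucins. MUC5B is made at all times and is needed to clear particles and microbes from the airway, whereas MUC5AC and the secreted protein CLCA1 are induced in allergic inflammation, chiefly by interleukin 13 acting through its receptor, the JAK kinases and STAT6. In mouse airways that signal turns club cells into goblet cells, a change driven by the transcription factors SPDEF and FOXA3, which raise the machinery for folding and packaging mucins, among it the protein disulphide isomerase AGR2.

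RefSeq promoters of build GRCm38.p6, the 250 bases before the annotated start, matched 5 of the 10 genes, Spdef, Foxa3, Agr2, Itln1 and Fcgbp, while Muc5ac, Muc5b, Clca1, Tff2 and Fer1l6 are named only. The promoters of the pair of transcription factor genes and of Fcgbp, a gel protein whose level was lower in both GOF than in both WT recipients, are shown 5′ to 3′ on the gene's own strand. Capitals mark a match to the forkhead motif TATTTAC, read on the opposite strand, in the Spdef promoter and to the TATA box motif TATAAA in the Foxa3 promoter. The first lies at chr17:27728952-27729201 on the minus strand, the second at chr7:19023540-19023789 on the minus strand and the third at chr7:28070986-28071235 on the plus strand.
Spdef: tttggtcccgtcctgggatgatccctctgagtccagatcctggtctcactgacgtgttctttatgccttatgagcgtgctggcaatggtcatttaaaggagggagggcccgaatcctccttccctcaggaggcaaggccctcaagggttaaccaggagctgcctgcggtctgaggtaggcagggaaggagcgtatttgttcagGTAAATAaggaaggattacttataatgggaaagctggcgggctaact
Foxa3: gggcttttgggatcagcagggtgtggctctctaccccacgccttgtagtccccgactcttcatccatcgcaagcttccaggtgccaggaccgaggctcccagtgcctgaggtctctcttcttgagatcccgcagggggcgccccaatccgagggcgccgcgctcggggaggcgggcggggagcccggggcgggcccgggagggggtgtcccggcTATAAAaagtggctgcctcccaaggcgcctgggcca
Fcgbp: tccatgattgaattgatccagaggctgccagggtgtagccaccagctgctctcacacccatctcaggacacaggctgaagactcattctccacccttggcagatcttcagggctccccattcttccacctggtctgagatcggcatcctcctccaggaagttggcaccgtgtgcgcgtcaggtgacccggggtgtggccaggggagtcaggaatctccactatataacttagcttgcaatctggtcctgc
Both strands of the 5 promoters were searched for the STAT6-type palindrome (TTC and GAA with any 4 bases between them), the forkhead motif TGTTTAC, its variants TGTTTGC and TATTTAC, and the TATA box. In all 32851 promoters of the same length, these stood in 5.85%, 3.17%, 4.3%, 2.73% and 12.4%. TATTTAC lay 47 to 41 bases before the Spdef start and TATAAA lay 36 to 31 bases before the Foxa3 start. The promoters of Fcgbp, Agr2 and Itln1 held none of the 5 motifs in these windows. TATTTAC was added to the search after the sequences had been seen, and a match is a string of letters, not a measured binding site.

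Libraries held 18198872 to 24393000 counts over 23427 to 24391 genes, and replicates of every group differed by more than counting noise. The club cell product Scgb1a1, a defining transcript of lung airway, was abundant in all libraries. Genes of stomach and oesophagus summed to at most 4.12 CPM (counts per 1000000 counts) in any library, with Gkn1 at 0 throughout, and genes of salivary and submucosal gland summed to at most 5.06 CPM, with Dcpp1, Dcpp2, Dcpp3 and Bpifb2 at 0. A pair of trace transcripts split the libraries in a way that the groups did not: WT recipient 1, both intrathecal vehicle libraries and subcutaneous RTX libraries 2 and 3 had over 2 CPM of Rps3a2, GOF recipients 1 and 2, WT recipient 2, all 3 intrathecal RTX libraries and subcutaneous vehicle library 1 had over 2 CPM of Hmga2 instead, and subcutaneous vehicle library 2 and subcutaneous RTX library 1 had neither. In the intrathecal experiment this split and the treatment cannot be told apart. Mouse Jak1 stood at 204 and 191 CPM in GOF recipients, against 256 and 281 CPM in WT recipients, and these counts do not identify the human allele. Nothing in the labels says whether each library stands for 1 mouse of its own, so the p-values rest on differences between libraries that may be technical.

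Per kilobase of exon, Clca1 had the highest mean level of the 10 transcripts over the 14 libraries, 372 CPM per kb. Tff2, a small trefoil peptide that binds mucins and aids repair of mucosa, followed at 29.9 CPM per kb, Fcgbp, a large protein of the mucus gel, at 22.5, Muc5b at 19.9, Agr2 at 19.7 and Muc5ac at 11.9 CPM per kb. Fer1l6, a ferlin of the family of membrane fusion proteins whose own role in the airway is little known, was at 3.70 CPM per kb, and the intelectin Itln1, a lectin that binds microbial sugars, at 2.42. The transcription factors had the lowest of these means, Spdef at 2.37 and Foxa3 at 0.739 CPM per kb, and Foxa3 rested on 7 to 62 counts per library. This order is that of the pooled means and did not hold in every group. In GOF recipients Tff2 averaged 20.8 and Clca1 16.5 CPM per kb, and Spdef 1.18 and Fer1l6 0.255 CPM per kb, and Spdef was above Itln1 after intrathecal RTX, intrathecal vehicle and subcutaneous vehicle. Reads of Muc5ac and Muc5b, neighbours on chromosome 7 at 141788972 to 141819231 and at 141839070 to 141873084 (GRCm38, plus strand), could hardly be confused, since 0.286% and 0.211% of their 31-base words were shared. Of the Fcgbp words 12.2% also stood in other genes. 11.8% stood in 9530053A07Rik, which itself reached at most 6.55 CPM, and 0.209% in B230219D22Rik, which was at 119.5 to 155 CPM and above Fcgbp in all 4 recipient libraries, so Fcgbp values carry that uncertainty.

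**Figure D1:**
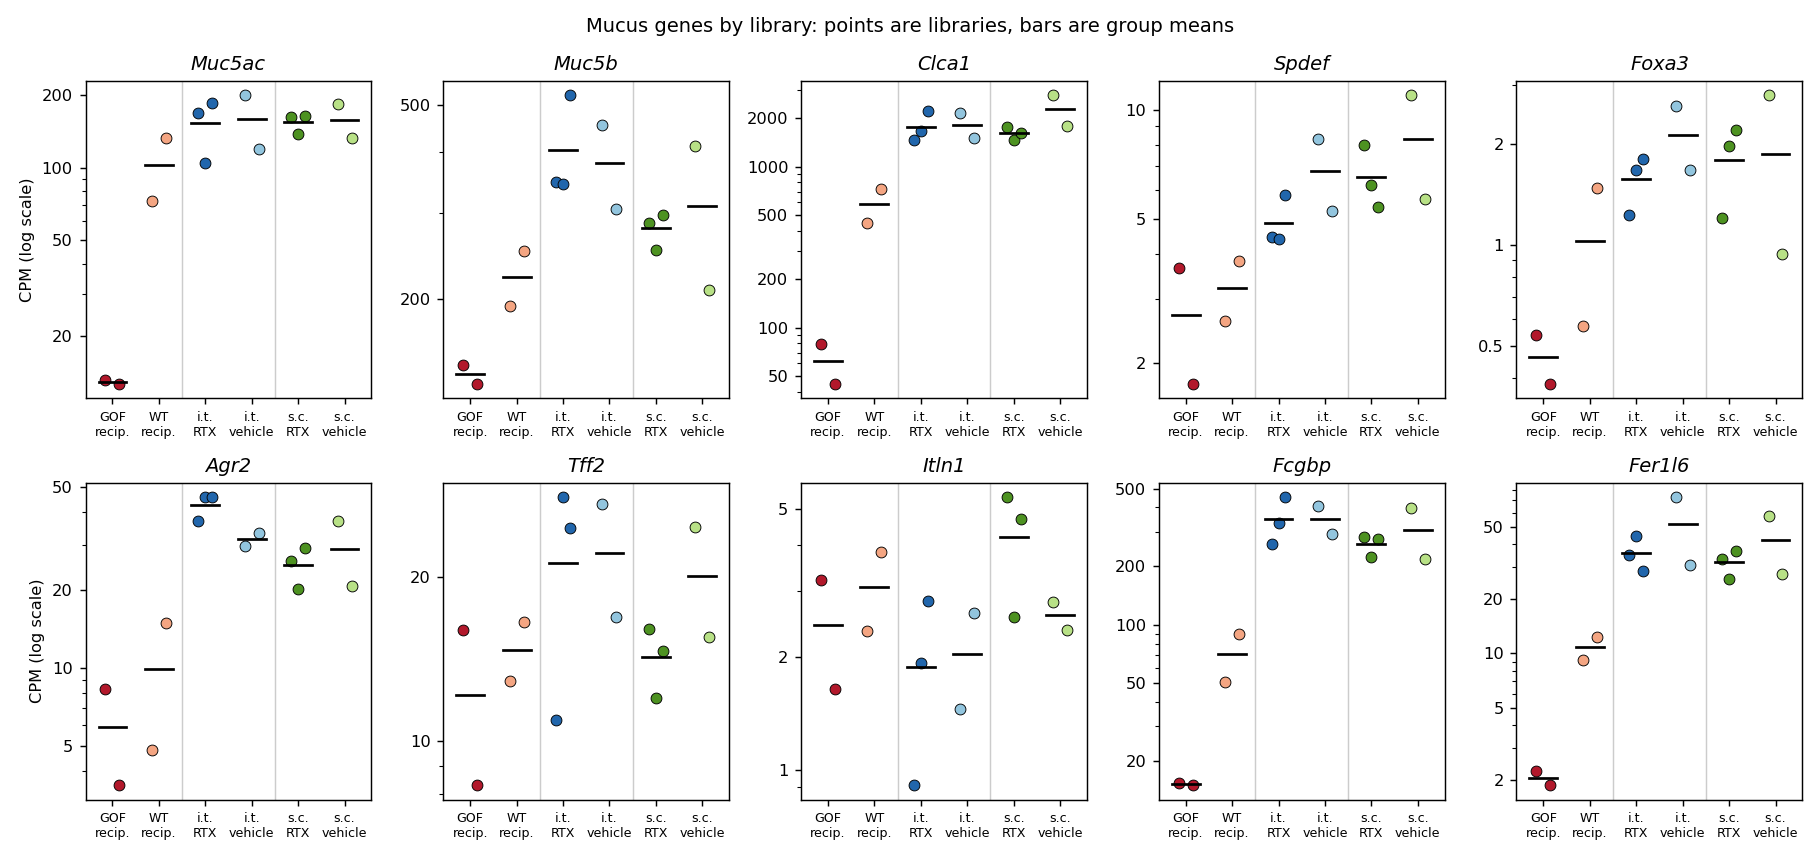
CPM of each mucus gene (vertical axis, log scale, its own range per panel) in every library, grouped along the horizontal axis into GOF and WT recipients, intrathecal (i.t.) RTX and vehicle, and subcutaneous (s.c.) RTX and vehicle; points are libraries and bars are group means. Both GOF recipients lie below both WT recipients for Muc5ac, Muc5b, Clca1, Fcgbp and Fer1l6 and, at equal counts of 12 in 1 library of each, for Foxa3, whereas RTX and vehicle libraries overlap for most genes.

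The chimera experiment asked what the JAK1 GOF allele in the host, outside the transplanted marrow, did to the allergen-exposed lung. Fer1l6 fell, and it alone of the 10 passed the test of all genes. Clca1, Muc5ac and Fcgbp lay lower in both GOF libraries than in both WT libraries, with fitted differences that missed the threshold, at log2 fold changes of -3.23 ± 0.41, -2.99 ± 0.35 and -2.21 ± 0.30 (fitted value ± SE). The fitted fold change was negative for 10 of 10 genes. Its median was -0.93 on the log2 scale, against 0.00 over all 17298 genes tested. The signs of Spdef, Agr2, Tff2 and Itln1 rested on single libraries. Without WT recipient 2, Spdef, Agr2 and Itln1 were at 0.09, 0.33 and 0.10. Without GOF recipient 2, Spdef, Tff2 and Itln1 were at 0.19, 0.13 and 0.07. In bulk lung RNA, fewer goblet cells and less RNA of a gene per goblet cell cannot be told apart.

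Muc5ac, the main inducible mucin, had 13.2 and 12.7 CPM in GOF recipients, against 73.0 and 133 CPM in WT recipients. Both GOF libraries were close to each other and far below both WT libraries. The fitted level was 7.93-fold lower in GOF recipients (edgeR's quasi-likelihood test, Benjamini-Hochberg adjusted p = 0.0587). Clca1, a secreted protease of goblet cells known to process mucins, had 79.5 and 44.9 CPM in GOF recipients, against 448 and 726 CPM in WT recipients. It showed the widest gap of the 10 genes, 9.38-fold lower in GOF recipients (edgeR adjusted p = 0.0686). Fcgbp had 15.4 and 14.9 CPM in GOF recipients, against 50.9 and 89.9 CPM in WT recipients. The groups did not overlap, and the fitted level was 4.63-fold lower in GOF recipients (edgeR adjusted p = 0.0591). Fer1l6 had 2.24 and 1.87 CPM in GOF recipients, against 9.19 and 12.4 CPM in WT recipients. These groups were also separate, and Fer1l6 fell by 2.38 ± 0.26 on the log2 scale, 5.19-fold (edgeR adjusted p = 0.00516).

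Muc5b, the mucin made without allergen, had 147 and 134 CPM in GOF recipients, against 194 and 251 CPM in WT recipients. The groups were again separate, but by a much smaller margin than for Muc5ac, 1.58-fold lower in GOF recipients (edgeR adjusted p = 0.0838). Among the genes of the goblet cell programme, Spdef had 3.67 and 1.76 CPM in GOF recipients, against 2.62 and 3.83 CPM in WT recipients. The Spdef groups overlapped, at a log2 fold change of -0.23 ± 0.38 (edgeR adjusted p = 0.870). Foxa3 had 0.537 and 0.385 CPM in GOF recipients, against 0.572 and 1.48 CPM in WT recipients, and as GOF recipient 1 and WT recipient 1 had 12 counts each, their order came from the library totals alone (log2 fold change -1.13 ± 0.59, edgeR adjusted p = 0.503). Agr2, which forms disulphide bonds in nascent mucins, had 8.27 and 3.52 CPM in GOF recipients, against 4.81 and 15.0 CPM in WT recipients. Its groups overlapped, with a wide spread in each (log2 fold change -0.73 ± 0.84, edgeR adjusted p = 0.816).

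Tff2 and Itln1 did not pass the test between recipients. Tff2 had 16.0 and 8.30 CPM in GOF recipients, against 12.9 and 16.6 CPM in WT recipients (log2 fold change -0.26 ± 0.30, edgeR adjusted p = 0.803). Itln1 had 3.22 and 1.65 CPM in GOF recipients, against 2.34 and 3.83 CPM in WT recipients (log2 fold change -0.32 ± 0.39, edgeR adjusted p = 0.808). Both sets of libraries overlapped, and the 2-SE interval of each difference reached well to either side of 0, for Tff2 -0.87 to 0.35 and for Itln1 -1.10 to 0.46.

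Of the 10 genes, 1 passed edgeR's test in the recipients, where 0.717% of all genes tested passed. GOF libraries lay below both WT libraries for 6 of the 10 genes, against 23% of all genes, and 1 of these 6 was Foxa3 with its equal counts. The log2 fold change was below -2 for 4 of the 10, against 0.416% of all genes, and 5 had an unadjusted p under 0.05 with a negative sign, against 6.94%. The 10 genes were chosen with earlier results of these data known, so these shares describe them and are no independent test. Which genes passed depended on a single library and on the model. With each library left out in turn, fitted values ran from -3.37 to -2.47 for Muc5ac and -3.71 to -2.82 for Clca1. They ran from -2.57 to -1.72 for Fcgbp, -2.59 to -2.13 for Fer1l6 and -0.85 to -0.44 for Muc5b. Fer1l6 lost its call when all 14 libraries were fitted together (log2 fold change -2.37, edgeR adjusted p = 0.123). There Muc5ac and Clca1 passed instead (edgeR adjusted p = 0.0296 and 0.00750), with 50 of all 18364 genes. Fer1l6 lost its call also with the split by trace transcripts as a term (-2.73, edgeR adjusted p = 0.116). There Muc5ac, Clca1 and Fcgbp passed, with 177 of all 18364 genes. DESeq2 called 5 of the 10, and 305 of all genes, against 124 of all genes with edgeR.

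**Figure D2:**
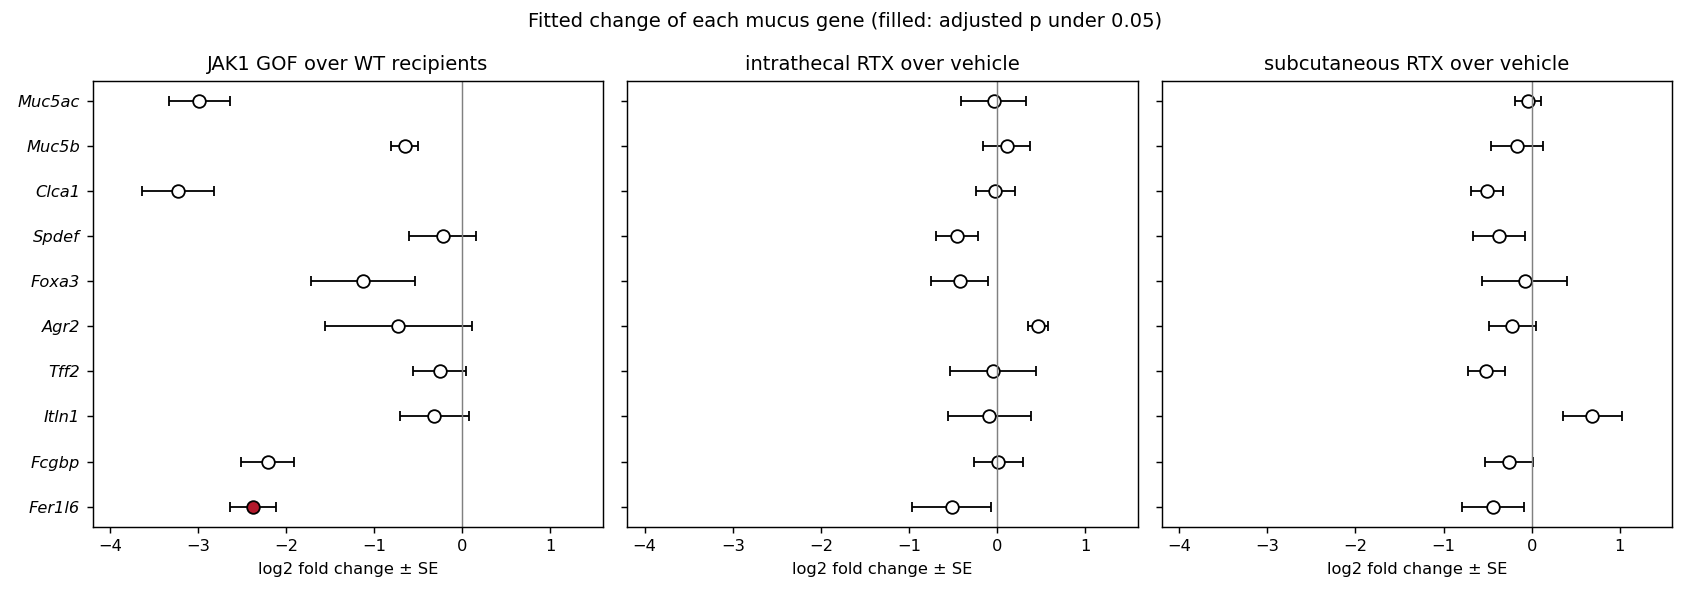
Fitted log2 fold change (horizontal axis, bars are ± SE) of each mucus gene in the 3 experiments, GOF over WT recipients, intrathecal RTX over vehicle and subcutaneous RTX over vehicle; a filled point passed edgeR's test at an adjusted p under 0.05. Only Fer1l6 in the recipients is filled, and Clca1, Muc5ac, Fcgbp and Fer1l6 lie below -2 there, against values between -0.52 and 0.69 in both RTX experiments.

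The make-up of the mucus transcripts differed between recipients along with their sum. The 10 genes summed to 289 and 224 CPM in GOF recipients, against 798 and 1252 CPM in WT recipients. Per kilobase, Clca1 made up 28.4% ± 1.04 of the summed level in GOF recipients and 68.8% ± 0.706 in WT recipients (SD, n = 2 each). Tff2 held 35.5% ± 3.43 in GOF recipients and 11.5% ± 1.74 in WT recipients, and Muc5b 17.2% ± 5.14 in GOF recipients and 6.75% ± 0.997 in WT recipients. So the most abundant of the 10 transcripts was Tff2 in both GOF libraries, and Clca1 in the other 12. The ratio of Muc5ac to Muc5b, both per kilobase, was 0.125 and 0.132 in GOF recipients, against 0.524 and 0.738 in WT recipients. The ratio in every RTX and vehicle library was above that in both GOF libraries: intrathecal RTX libraries had 0.422 to 0.674 and their vehicle libraries 0.544 and 0.610, and subcutaneous RTX libraries had 0.764 to 0.790 and their vehicle libraries 0.619 and 0.882. These shares and ratios follow from the levels above and were not tested.

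**Figure D3:**
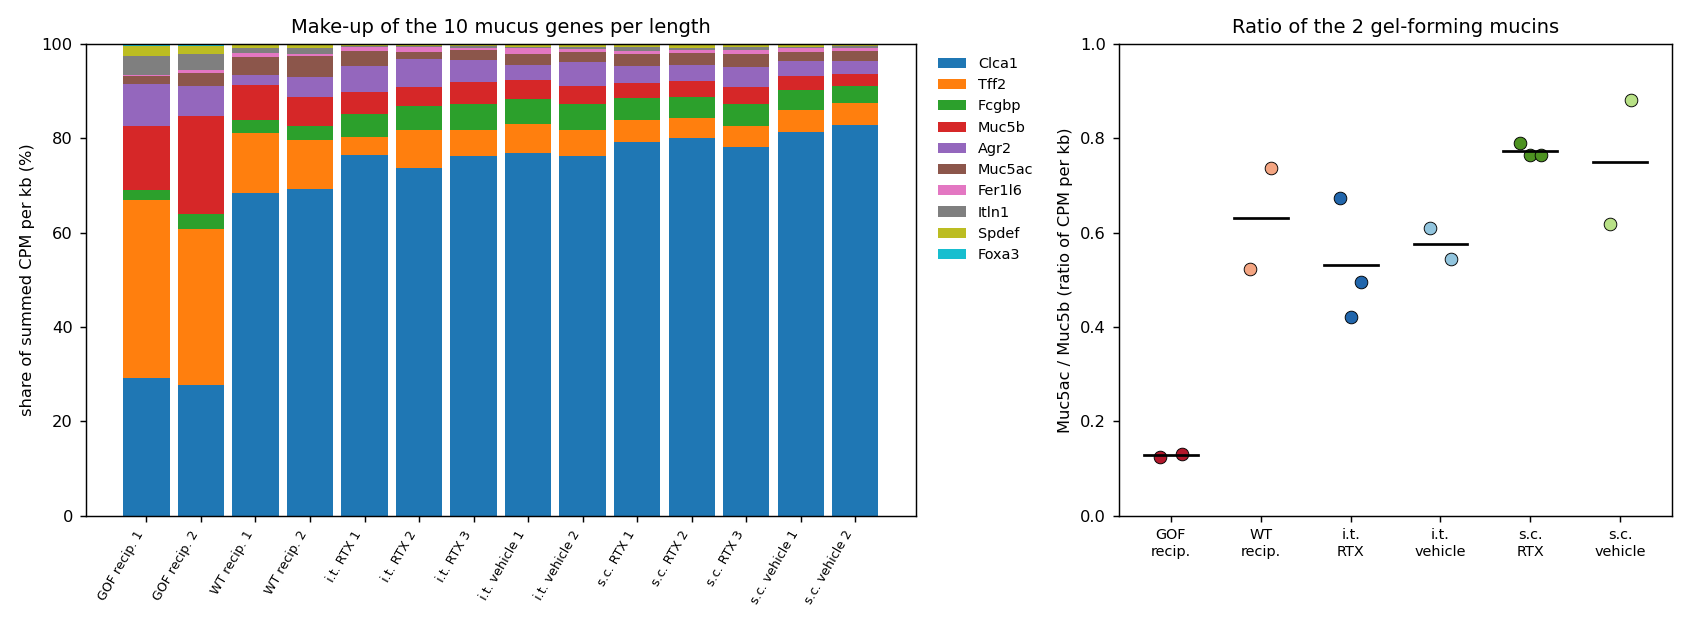
Left, share of each mucus gene in the summed CPM per kb of the 10 genes (vertical axis, percent) for every library; right, the ratio of Muc5ac to Muc5b per kb, with points for libraries and bars for group means. Clca1 fills 27.7% and 29.1% of the GOF columns and at least 68.3% of every other column, and the GOF ratios of 0.125 and 0.132 lie below all the others.

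Lists of other genes of the mucus pathway had medians near 0 in the recipients. In whole lung RNA these medians do not show levels within goblet cells. They also hide single genes, such as Slc26a4 of the ion list, which is given under other observations. Among other mucins, mostly membrane-bound, 0 of 7 tested genes passed edgeR's test, with a median log2 fold change of -0.02. Among 17 regulators of goblet cells, 0 passed and the median was -0.03. Stat6, the factor that interleukin 13 acts through, had 170 and 167 CPM in GOF recipients, against 173 and 172 CPM in WT recipients. Foxa1, a forkhead factor of airway epithelium, had 51.7 and 50.3 CPM in GOF recipients, against 35.8 and 36.5 CPM in WT recipients, at a log2 fold change of 0.51 ± 0.12 (edgeR adjusted p = 0.0912). Creb3l1, a transcription factor of secretory cells, had 29.1 and 28.7 CPM in GOF recipients, against 33.7 and 47.4 CPM in WT recipients (edgeR adjusted p = 0.275). Stat6 was picked for its role, outside the rule for naming genes. An unadjusted p under 0.05 was reached by 1 of the 7 mucins and 4 of the 17 regulators, against 11.6% of all genes in either direction, and DESeq2 and limma voom called 0 of either list.

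Of 13 genes of mucin folding, 0 passed, 10 were negative and 3 positive, and the median was -0.15. Ern2, the stress sensor of mucus-making epithelium, had 0.672 and 0.440 CPM in GOF recipients, against 0.476 and 1.82 CPM in WT recipients, and these overlapped. Of 19 genes of mucin glycosylation, 0 passed, 14 were negative and 5 positive, and the median was -0.15. Galnt6, which starts sugar chains on mucins, had 28.3 and 31.7 CPM in GOF recipients, against 40.8 and 49.0 CPM in WT recipients, the smallest p of its list (log2 fold change -0.58 ± 0.14, edgeR adjusted p = 0.0988). The 12 genes of the secretion machinery and the 10 of ion transport and hydration had medians of 0.01 and -0.02, and 0 of them passed. An unadjusted p under 0.05 was reached by 0, 5, 1 and 2 genes of the folding, glycosylation, secretion and ion lists, against that same 11.6% of all genes, and DESeq2 and limma voom called 0 in each. The pair of genes with the smallest p in the ion list were Aqp5, a water channel, at 333 and 314 CPM in GOF recipients, against 253 and 255 CPM in WT recipients, and Slc12a2, a chloride transporter, at 98.2 and 110 CPM in GOF recipients, against 133 and 133 CPM in WT recipients (edgeR adjusted p = 0.329 and 0.280).

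Bpifa1, a surface-active defence protein of the upper airway, rose to 336 and 306 CPM in GOF recipients, against 103 and 116 CPM in WT recipients, at a log2 fold change of 1.56 ± 0.14 (edgeR adjusted p = 0.00258). It was the 1 of 11 genes of the list of other secreted airway products that passed.

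Summed levels of genes of other cell types also stood apart between recipients, and their part in the mucus result was not tested. Genes of club cells, from which mouse goblet cells arise, summed to 12644 and 14563 CPM in GOF recipients, against 11584 and 8865 CPM in WT recipients, with 0 of 8 past the test and a median log2 fold change of 0.42. Ciliated cell genes summed to 672 to 714 CPM in GOF recipients, against 543 to 548 CPM in WT recipients, with 0 of 10 past the test and a median of 0.37. General epithelial genes had a median of 0.14 over 8 genes. Eosinophil genes, markers of the type 2 response, summed to 44.8 to 50.5 CPM in GOF recipients, against 75.5 to 123 CPM in WT recipients. Of those tested, 7 of 7 were negative and 0 passed edgeR's test. Heart muscle genes summed to 592 to 599 CPM in GOF recipients, against 267 to 381 CPM in WT recipients. The log2 fold change was positive for 10 of 10, and 6 passed edgeR's test, where 0.717% of all genes tested passed. Among these 6 were Sln, at 1.51 ± 0.22, and Myl7, at 1.36 ± 0.18 (edgeR adjusted p = 0.0183 and 0.0158). DESeq2 called 7 of the 10 and limma voom 5. Krt15, a keratin of basal cells, rose to 7.30 and 4.62 CPM in GOF recipients, against 1.71 and 1.77 CPM in WT recipients (log2 fold change 1.78 ± 0.31, edgeR adjusted p = 0.0304). It was the 1 of 5 basal cell genes that passed, against that same 0.717% of all genes. DESeq2 called 1 of the 5 and limma voom 0. Xist was lower in GOF recipients, at 62.9 and 73.2 CPM, against 122 and 132 CPM in WT recipients (edgeR adjusted p = 0.0158). Il13, the main inducer of Muc5ac and Clca1, was at 0.403 and 0.165 CPM in GOF recipients, against 0.429 and 1.10 CPM in WT recipients, too low to be tested, and it was at 6.05 to 15.8 CPM in the RTX and vehicle libraries. An unadjusted p under 0.05 was reached by 4 of the 8 club cell genes, 6 of the 10 ciliated cell genes and 6 of the 7 eosinophil genes, against 11.6% of all genes. DESeq2 called 2, 1 and 3 of these and 305 of all 17298 genes, and limma voom called 0 of these.

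**Figure D4:**
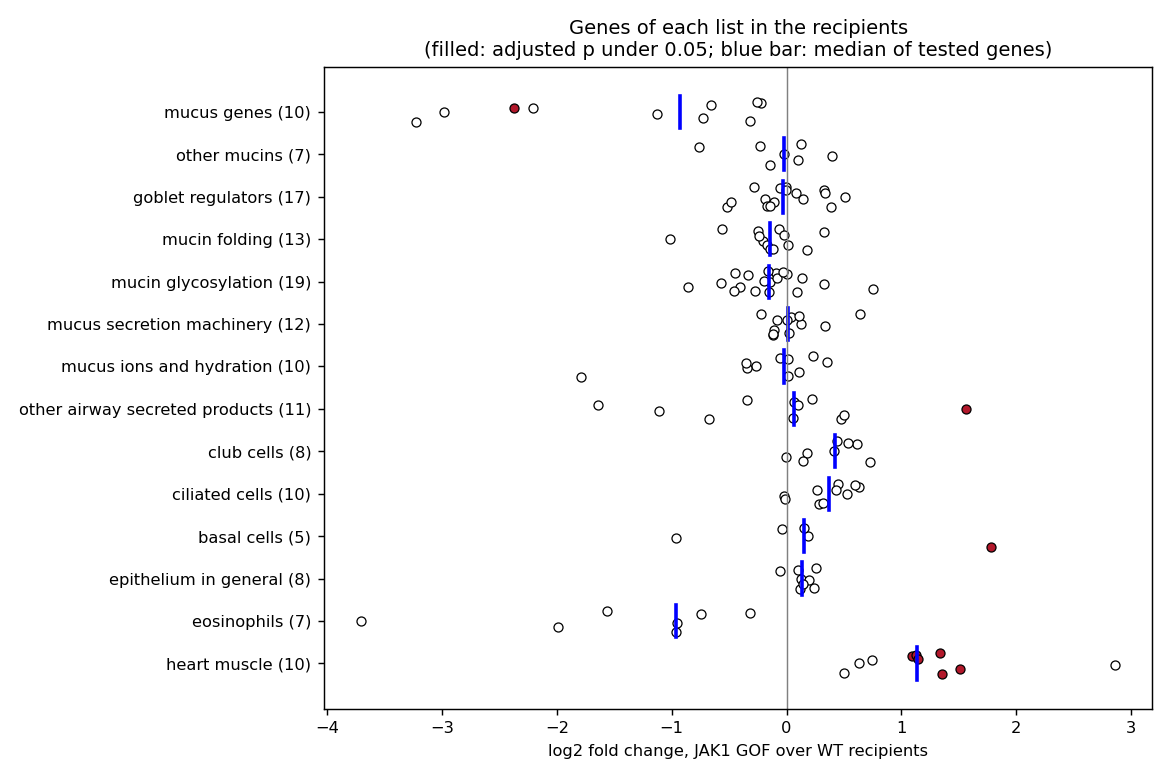
Log2 fold change of every tested gene, GOF over WT recipients (horizontal axis), by list (rows, number of tested genes in brackets); filled points passed edgeR's test and blue bars are list medians. The mucus genes and eosinophil genes have the lowest medians, -0.93 and -0.96, the lists of mucin folding, glycosylation and secretion lie between -0.15 and 0.01, and heart muscle has the highest median, 1.14.

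The intrathecal experiment asked what the loss of spinal visceral afferents did to the same response, and no mucus gene passed the test. Of the 10 genes, 0 passed with edgeR, where 0.311% of all 17360 genes tested passed; 1 had an unadjusted p under 0.05, against 11.5% of all genes, and DESeq2 and limma voom also called 0. Agr2 was the one gene whose groups were separate. It had 37.0, 45.7 and 45.7 CPM in intrathecal RTX libraries, against 29.6 and 33.3 CPM in intrathecal vehicle libraries, at a log2 fold change of 0.46 ± 0.12 (edgeR adjusted p = 0.177). Of all genes, 13.5% had RTX libraries wholly above vehicle libraries. The sign turned, to -0.87, once the split by trace transcripts was a term of the model, and here that split and the treatment cannot be told apart.

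Muc5ac had 168, 104 and 186 CPM in intrathecal RTX libraries, against 200 and 120 CPM in intrathecal vehicle libraries. Clca1 had 1463, 1665 and 2204 CPM in intrathecal RTX libraries, against 2156 and 1499 CPM in intrathecal vehicle libraries. For both, each group held a high and a low library, and the groups overlapped. The fitted log2 fold change was -0.04 ± 0.37 for Muc5ac, with a 2-SE interval of -0.77 to 0.69, and -0.02 ± 0.22 for Clca1, with an interval of -0.46 to 0.42. Muc5b stood at 347, 344 and 523 CPM in intrathecal RTX libraries, against 455 and 306 CPM in intrathecal vehicle libraries. Fcgbp had 261, 332 and 452 CPM in intrathecal RTX libraries, against 405 and 293 CPM in intrathecal vehicle libraries. The Fcgbp values of the RTX libraries spanned those of the vehicle libraries, and the Muc5b values overlapped. Fer1l6 had 34.8, 44.3 and 28.5 CPM in intrathecal RTX libraries, against 73.0 and 30.7 CPM in intrathecal vehicle libraries, and vehicle library 1 stood apart (log2 fold change -0.52 ± 0.45, edgeR adjusted p = 0.737). The transcription factors had the next largest negative values, Spdef -0.45 ± 0.24 and Foxa3 -0.42 ± 0.32 (edgeR adjusted p = 0.501 and 0.667). Fitted values were positive for 3 of the 10 and negative for 7, with a median of -0.04. Of the 13 mucin folding genes, 0 passed with edgeR. For these genes too, the split by trace transcripts and the treatment cannot be told apart. An unadjusted p under 0.05 was reached by 6 of the 13, against 11.5% of all genes. DESeq2 called 4 of the 13, against 254 of all 17360 genes, and limma voom called 0 of the 13. The median log2 fold change was 0.17, but the smallest p belonged to a negative value, that of Bhlha15, a transcription factor of secretory cells, at -0.95 ± 0.17 (edgeR adjusted p = 0.0573), while the other 5 of these 6 were positive, the largest Creld2, an endoplasmic reticulum chaperone, at 0.61 ± 0.11 (edgeR adjusted p = 0.0665).

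The subcutaneous experiment asked the same of vagal and spinal visceral afferents together. With edgeR 0 of the 10 passed, as did 0% of all 17363 genes tested; 2 of the 10, Clca1 and Tff2, had an unadjusted p under 0.05, as did 18.2% of all genes. DESeq2 and limma voom called 0 of the 10, and 761 and 0 of all genes. Fitted values were negative for 9 of the 10, with a median of -0.24 against 0.00 over all genes, but this direction rested on vehicle library 1. Without that library 7 of these 9 turned positive, Muc5ac to 0.21, Muc5b to 0.40, Spdef to 0.18, Foxa3 to 0.91, Agr2 to 0.26, Fcgbp to 0.24 and Fer1l6 to 0.20, and the same 7 were positive with the split by trace transcripts as a term. Clca1 and Tff2 were still negative in both, at -0.16 and -0.14 without vehicle library 1 and at -0.063 and -0.16 with the split.

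Clca1 had 1761, 1462 and 1626 CPM in subcutaneous RTX libraries, against 2772 and 1782 CPM in subcutaneous vehicle libraries. It was the one gene whose groups did not overlap, which 17.8% of all genes shared in this direction, and the gap between the nearest libraries was small (log2 fold change -0.51 ± 0.18, edgeR adjusted p = 0.221). Tff2 had 16.1, 12.02 and 14.7 CPM in subcutaneous RTX libraries, against 24.7 and 15.5 CPM in subcutaneous vehicle libraries (log2 fold change -0.51 ± 0.21, edgeR adjusted p = 0.262). Muc5ac had 163, 139 and 163 CPM in subcutaneous RTX libraries, against 183 and 132 CPM in subcutaneous vehicle libraries. Muc5ac thus lay within the vehicle range, with a log2 fold change of -0.04 ± 0.14 and a 2-SE interval of -0.33 to 0.25. Itln1 had the one positive value, with 5.37, 2.57 and 4.69 CPM in subcutaneous RTX libraries, against 2.81 and 2.37 CPM in subcutaneous vehicle libraries (log2 fold change 0.69 ± 0.34, edgeR adjusted p = 0.321).

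Subcutaneous vehicle library 1 was the highest of the 14 for Clca1, Spdef and Foxa3, and the summed level of the 10 genes was 3900 CPM in it and 2413 CPM in vehicle library 2. Without vehicle library 2, Muc5b, Clca1 and Tff2 passed, at log2 fold changes of -0.57, -0.79 and -0.80 (edgeR adjusted p = 0.0345, 0.0234 and 0.0431), along with 871 of all genes, whereas without vehicle library 1 the same test called 0 of the 10 and 1 of all genes. Club cell genes summed to 5445 to 6146 CPM in subcutaneous RTX libraries, against 9264 to 14704 CPM in subcutaneous vehicle libraries, and eosinophil genes to 348 to 389 CPM in subcutaneous RTX libraries, against 232 to 302 CPM in subcutaneous vehicle libraries. Ciliated cell genes summed to 310 to 334 CPM in subcutaneous RTX libraries, against 407 to 619 CPM in subcutaneous vehicle libraries. With edgeR 0 of the 8 club, 8 eosinophil and 10 ciliated cell genes passed, as did 0% of all genes. An unadjusted p under 0.05 was reached by 7 of each list, against 18.2% of all genes. DESeq2 called 5, 4 and 5 of these and 761 of all 17363 genes, and limma voom called 0 of these. The part of these cell types in the mucus values was not tested.

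The effects were then set against each other in joint models, which tested each difference itself. The lower level of Muc5ac and Clca1 in GOF recipients differed from the effect of subcutaneous RTX, by -2.94 ± 0.39 and -2.72 ± 0.45 on the log2 scale (edgeR adjusted p = 0.0217 and 0.0317). These were 2 of the 10 genes, where 2.87% of all 18074 genes tested passed. Fcgbp and Fer1l6 differed by -1.95 ± 0.48 and -1.94 ± 0.53, short of the threshold (edgeR adjusted p = 0.0796 and 0.0902). Both calls were lost without GOF recipient 1, GOF recipient 2, subcutaneous vehicle library 1 or subcutaneous RTX library 1, with differences of -2.91 to -3.20 for Muc5ac and -2.37 to -3.19 for Clca1, and Clca1 alone was lost without WT recipient 2 or subcutaneous RTX library 2 or 3.

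Against the effect of intrathecal RTX, 0 of the 10 passed with edgeR, where 0.0333% of all genes passed. Clca1 differed by -3.21 ± 0.50, Muc5ac by -2.95 ± 0.60, Fcgbp by -2.22 ± 0.49 and Fer1l6 by -1.85 ± 0.68 (edgeR adjusted p = 0.0917, 0.181, 0.185 and 0.361). An unadjusted p under 0.05 was reached by 4 of the 10, against 11.8% of all genes, DESeq2 called 3 and limma voom 1. Between the RTX routes, 0 of the 10 passed with edgeR, where 0.0556% of all genes passed, 0 had an unadjusted p under 0.05, against 15.2% of all genes, and DESeq2 and limma voom called 0. The largest of these differences, subcutaneous minus intrathecal, was that of Itln1 at 0.79 ± 0.64, and the one with the smallest p was that of Agr2 at -0.67 ± 0.32 (edgeR adjusted p = 0.364).

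Across the 6 groups, GOF recipients had the lowest mean of 9 of the 10 genes, the exception being Itln1, which was lowest after intrathecal RTX. WT recipients came next for 8 of those 9, below each of the RTX and vehicle groups, and for Tff2 subcutaneous RTX came between. For Clca1, Spdef, Agr2, Fcgbp and Fer1l6, all 4 recipients of bone marrow lay below all 10 other libraries. How many of all genes were ordered or split in these ways was not counted, so the counts have no background to be read against. Irradiation and transplant, however, came with 1 experiment only, so they cannot be told apart from other differences between the experiments, and no test was made across them. Among those differences was Xist, a transcript of female cells, at 62.9 to 132 CPM in the 4 recipients and 0.913 to 5.11 CPM in the 10 other libraries, and its part in these levels was not tested. The mean of the 4 vehicle libraries over that of WT recipients was 4.66-fold for Fcgbp, 4.37-fold for Fer1l6, 3.50-fold for Clca1 and 3.04-fold for Agr2, but 1.54-fold for Muc5ac, 1.55-fold for Muc5b and 1.43-fold for Tff2. Fcgbp and Fer1l6 were therefore low in both kinds of recipient beside the vehicle libraries, whereas Muc5ac and Muc5b in WT recipients were nearer to them.

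Neighbours in the order of the 6 groups were often too close to be ranked. Of 50 neighbouring pairs, 14 had means further apart than the larger of their SDs. For Muc5ac, Muc5b, Clca1, Fcgbp and Fer1l6 these were the steps between GOF and WT recipients and between WT recipients and the next group. For Muc5ac the libraries of WT recipients and intrathecal RTX still overlapped, at 73.0 to 133 CPM and 104 to 186 CPM. For Spdef the steps were those between WT recipients and intrathecal RTX and between intrathecal and subcutaneous RTX, and at the latter the libraries still overlapped. For Agr2 they were the steps between WT recipients and subcutaneous RTX and between intrathecal vehicle and intrathecal RTX. The 4 groups of the RTX experiments did not differ beyond their SDs for Muc5ac, which averaged 153 ± 43.1 CPM after intrathecal RTX and 160 ± 56.6 CPM after intrathecal vehicle, and 155 ± 14.2 CPM after subcutaneous RTX and 158 ± 36.0 CPM after subcutaneous vehicle (SD, n = 3, 2, 3 and 2).

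Over the 14 libraries, the levels of Clca1, Fcgbp and Fer1l6 ran closest to that of Muc5ac, with Pearson's r of 0.970, 0.933 and 0.924 on log2(CPM + 1). Of 15536 genes with a mean of at least 1 CPM, ranked by this r with Muc5ac itself as 1, they stood at 2, 5 and 8. Muc5b was at 0.834, Agr2 at 0.792, Foxa3 at 0.789 and Spdef at 0.730, while Tff2 at 0.473 and Itln1 at 0.0966 did not follow Muc5ac. These values share the libraries, their depth and above all the low level of the GOF recipients. Among the 10 libraries without transplant r was 0.591 for Clca1, 0.489 for Fcgbp and 0.396 for Fer1l6. Deviations from the group means showed another pattern, in which Clca1 went with Spdef and Muc5b went with Fcgbp, each at r = 0.918 over 14 libraries. Itln1 with Fer1l6 was the loosest pair at 0.00562. In a group of 2 libraries the deviations mirror each other, so these 14 values are not independent. Levels in the 10 libraries without transplant gave r of 0.771 for Clca1 with Spdef and 0.945 for Muc5b with Fcgbp.

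The 10 named genes outside the mucus set with the highest r to Muc5ac were Septin3, Dna2, Clec10a, Chil3, Picalm, Mlph, Thbs1, Cyp51, Chil4 and Flt3, with r of 0.958 to 0.910 over 14 libraries. They include Mlph, a link between secretory vesicles and myosin (r = 0.922), the chitinase-like proteins Chil3 and Chil4 (0.926 and 0.911), and Clec10a and Flt3, a lectin and a growth factor receptor of dendritic cells (0.932 and 0.910). Without the transplant libraries r was -0.09 to 0.59 for these 10. Mlph averaged 33.2 CPM in GOF recipients, against 48.8 CPM in WT recipients, and 62.6 to 71.9 CPM in the other 4 groups. Chil4, a chitinase-like protein of the epithelium in type 2 inflammation, averaged 11.6 CPM in GOF recipients, against 85.1 CPM in WT recipients, and 501 to 1158 CPM in the other 4 groups.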

How the data were processed

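Lung mRNA of 14 libraries had been sequenced by the authors and deposited as 3 tables, 1 per experiment, of estimated counts per gene. Per the submitters' processing notes, the tools were FastQC 0.11.8, Trim Galore 0.6.6, STAR 2.7.5b and Salmon 1.2.1 and the build was GRCm38. Neither the annotation release nor the strand setting is stated there, so antisense reads could not be told apart. In the deposited estimated counts, 24.2% of values were not whole, as Salmon gives, and they were rounded before testing. Levels are CPM of a library's total, and CPM per kb divides by the exon length of GENCODE M21, matched by identifier, which also gave positions. No column of another sample was present (0).

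Tests used edgeR 4.0.16 under R 4.3.3, with 1 model per experiment. Low genes were dropped by filterByExpr (10 counts minimum, 15 in total), libraries were scaled by TMM, and the robust quasi-likelihood F test was used. Differences of effects were contrasts in joint models of 9 or 10 libraries. P-values were adjusted by Benjamini-Hochberg across every gene in a comparison, with 0.05 as threshold. SE is the size of the log2 fold change over the square root of F, and intervals are 2 SE to each side. The procedure was also run on simulated counts, and how many true changes it found there is not given here. As alternatives, scaling was by DESeq2 size factors or by total counts, the filter was dropped or set at 1 CPM in 2 libraries, the test was DESeq2 1.42.0 or voom of limma 3.58.1, the prior was not robust, all 14 libraries were modelled together, without or with the split by trace transcripts as a term, the replicate number was a block, and each library was left out in turn. For likeness to Muc5ac they were TMM scaling and a pseudocount of 0.5 in place of 1.

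The genes and lists were chosen with earlier results of these data known. Named were the 10 mucus genes, per other list up to 4 genes past the threshold with the largest change or the 2 with the smallest p, and the 10 genes most like Muc5ac with a mean of at least 1 CPM and no predicted-gene or clone name. A floor of 3 counts corresponded to 0.123 to 0.165 CPM and covers counting error only.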

Additional observations from a re-analysis of the deposited data

Results flagged for a closer look

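The effect of the JAK1 GOF recipient differed from that of subcutaneous RTX for Muc5ac and Clca1, as a tested contrast in 1 fit. The difference was -2.94 for Muc5ac and -2.72 for Clca1 on the log2 scale (edgeR adjusted p = 0.0217 and 0.0317), with both GOF libraries below both WT libraries for each gene, and with subcutaneous RTX libraries below both vehicle libraries for Clca1 and between them for Muc5ac. Both calls held under the 9 alternatives that kept every library, and both were lost without GOF recipient 1, GOF recipient 2, subcutaneous vehicle library 1 or subcutaneous RTX library 1.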

How the results depend on the processing

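Of the 10 mucus genes, the count past the threshold in the recipients was 1 as reported and also with DESeq2 size factors and a filter of 1 CPM in 2 libraries, 2 with all 14 libraries together, 3 with total counts alone (Muc5ac, Fcgbp and Fer1l6), 3 with the split by trace transcripts (Muc5ac, Clca1 and Fcgbp, with Fer1l6 no longer called), 4 with limma voom or no robust prior, and 5 with no low-count filter or DESeq2. For the recipient effect minus the subcutaneous effect it was 5 with no filter and 4 with DESeq2, and for the recipient effect minus the intrathecal effect 6 with no filter, 3 with DESeq2, and 1 with limma voom, no robust prior, all 14 libraries or the split. With no filter 1 gene, Agr2, passed in the intrathecal experiment. Leaving out each library gave 1 to 5 genes in the recipients, 0 to 3 in the subcutaneous experiment, 0 to 3 and 0 to 2 for the recipient effect minus the subcutaneous and the intrathecal effect, and 0 in the intrathecal experiment and between the RTX routes. Where such a fit left a group with 1 library, that library was assumed to vary like the others. Over all genes, the count of calls ran over the alternatives between 45 and 919 in the recipients (124 as reported), 5 and 655 in the intrathecal experiment (54), 0 and 871 in the subcutaneous one (0), and 1 and 2447, 0 and 932, and 0 and 312 for the recipient minus subcutaneous (519), recipient minus intrathecal (6) and subcutaneous minus intrathecal effect (10). GOF recipients were the lowest group for 9 of 10 genes also after TMM scaling, and 9 or 8 of the 10 genes most like Muc5ac were shared under TMM scaling or the other pseudocount. The fitted range over all alternatives in the recipients was -3.37 to -2.47 for Muc5ac, -3.71 to -2.82 for Clca1, -2.61 to -1.72 for Fcgbp, -2.73 to -2.13 for Fer1l6 and -0.96 to -0.44 for Muc5b. With 2 or 3 libraries a group and 7 to 62 counts of Foxa3 a library, small differences of the scarce genes were not detectable. The causes of these shifts were not tested.

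Correlations of deviations between libraries of the same replicate number were 0.0152 in the recipients, -0.272 and -0.200 in the intrathecal and -0.113 and -0.0854 in the subcutaneous experiment. Those between different numbers had the same size and the opposite sign. They therefore cannot show whether the numbers paired the samples. With the number as a block, 3 of the 10 genes passed in the recipients (Muc5ac, Fcgbp and Fer1l6), and the intrathecal values of Muc5b and Fcgbp turned to -0.10 and -0.22.

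Signs turned only for values that had not passed. In the intrathecal experiment Fcgbp was -0.0042 with total counts and -0.0060 with limma voom, and with the split Muc5b was -0.53, Agr2 -0.87 and Fcgbp -0.91. In the subcutaneous experiment Foxa3 was 0.050 with limma voom, and with the split Muc5ac was 0.41, Muc5b 0.22, Spdef 0.20, Foxa3 0.58, Agr2 0.56, Fcgbp 0.30 and Fer1l6 0.032. For subcutaneous minus intrathecal, Muc5ac was -0.014 with no filter, and with the split Muc5b was 0.75, Clca1 0.72, Agr2 1.43, Tff2 0.48 and Fcgbp 1.21. With the split, the recipient effect minus the subcutaneous effect was -0.84 for Spdef and -0.38 for Tff2, and minus the intrathecal effect 0.011 for Foxa3, 0.11 for Tff2 and 0.21 for Itln1.

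Leaving out each library gave these ranges where a sign turned. In the recipients they were -1.49 to 0.33 for Agr2, -0.90 to 0.10 for Itln1, -0.87 to 0.19 for Spdef and -0.82 to 0.13 for Tff2. In the intrathecal experiment they were -0.26 to 0.25 for Clca1, -0.23 to 0.26 for Fcgbp, -1.01 to 0.23 for Fer1l6, -0.52 to 0.40 for Itln1, -0.36 to 0.37 for Muc5ac, -0.15 to 0.41 for Muc5b and -0.34 to 0.33 for Tff2. In the subcutaneous experiment they were -0.57 to 0.26 for Agr2, -0.63 to 0.24 for Fcgbp, -0.87 to 0.20 for Fer1l6, -0.65 to 0.91 for Foxa3, -0.25 to 0.21 for Muc5ac, -0.57 to 0.40 for Muc5b and -0.76 to 0.18 for Spdef. For subcutaneous minus intrathecal they were -0.63 to 0.23 for Fcgbp, -0.66 to 0.72 for Fer1l6, -0.22 to 1.34 for Foxa3, -0.40 to 0.33 for Muc5ac, -0.67 to 0.30 for Muc5b and -0.30 to 0.64 for Spdef. For the recipient effect minus the subcutaneous effect they were -1.27 to 0.56 for Agr2, -0.50 to 0.56 for Spdef and -0.30 to 0.64 for Tff2, and minus the intrathecal effect -1.25 to 0.16 for Foxa3, -0.81 to 0.21 for Itln1, -0.41 to 0.65 for Spdef and -0.77 to 0.17 for Tff2.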

Other observations

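Other products of the allergic airway epithelium, chosen after their values were seen, are given here as values. Slc26a4, the anion exchanger pendrin, had 14.4 and 14.8 CPM in GOF recipients, against 22.6 and 78.2 CPM in WT recipients, and 241 to 461 CPM in the RTX and vehicle libraries. Its difference between recipients did not pass (log2 fold change -1.79, edgeR adjusted p = 0.624). Chia1, an acidic chitinase, had 93.6 and 97.7 CPM in GOF recipients, against 147 and 267 CPM in WT recipients, and 491 to 1364 CPM in the other libraries. Bpifb1, a relative of Bpifa1 also secreted into airway mucus, had 254 and 231 CPM in GOF recipients, against 208 and 258 CPM in WT recipients, so these groups overlapped.

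Of the subcutaneous vehicle libraries, the one with more mucus RNA had less RNA of type 2 cytokines. Vehicle library 1 had 3900 CPM over the 10 mucus genes and vehicle library 2 had 2413 CPM. Il13 stood at 6.82 CPM in vehicle library 1 and 15.0 CPM in vehicle library 2, and Il5, the growth factor of eosinophils, at 5.14 and 15.0 CPM. Other cell types stood apart between these libraries as well: club cell genes summed to 14704 CPM in vehicle library 1 and 9264 CPM in vehicle library 2, ciliated cell genes to 619 and 407 CPM, and heart muscle genes to 463 and 126 CPM. Their part in the mucus values was not tested.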
